A study of Mus musculus with 13 samples.

Results

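The collagen genes are the genes whose symbol has the form of a collagen alpha chain: Col, a type number, the letter a and a chain number. All symbols of that form in the expression files were taken, whatever their level, which gave 41 of 20325 genes. They were grouped by the structure their chains build. The first class held 11 fibrillar genes (types I, II, III, V, XI, XXIV and XXVII), the second 6 genes of the type IV network of basement membranes, and the third 24 other genes. The third class comprised 9 fibril-associated, 4 type VI, 4 transmembrane, 3 hexagonal network and 2 multiplexin genes, Col7a1 of the anchoring fibrils and Col28a1.

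Collagens are proteins in which 3 alpha chains wind into a triple helix. Fibrillar chains assemble into the fibrils of connective tissue and are a main product of fibroblasts, where type I is made of Col1a1 and Col1a2 chains and type V helps to start the fibril. Type IV chains form the sheet under epithelia, and in the mouse embryo the earliest basement membranes contain Col4a1 and Col4a2. Ascorbic acid is a cofactor of the prolyl and lysyl hydroxylases that stabilise the helix after translation, and it is also one of the agents given here.

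The study followed mouse pre-iPSCs, cells derived from embryonic fibroblasts (MEFs) that have stalled on the way to induced pluripotency, in medium for embryonic stem cells with serum and leukaemia inhibitory factor. The genotypes sampled were wild type (WT) and Kdm3b knockout (KO). Kdm3b encodes a demethylase of histone H3 lysine 9. Cells were taken at days 0, 2 and 10 of treatment with AA+2i, that is ascorbic acid with the GSK3 inhibitor CHIR-99021 and the MEK inhibitor PD-0325901, with 2 libraries (A and B) in each of the 6 groups. One further library came from V6.5 mouse embryonic stem cells (ESC). The day 0 libraries are titled DMSO although their treatment label reads AA+2i, so they are taken here as the start of the time course, and the treatment of the ESC library, which carries the same label with time 0hr, is uncertain. The labels give neither the number of clones behind each genotype, nor the reprogramming transgenes, nor whether A and B were separate cultures, so p-values measure the spread between these libraries, which may be technical.

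The sequence upstream of the start is shown for 4 members that were higher in WT cells at day 10. They were chosen to show promoters with different letters, in genes whose courses also differed (Col3a1 is described apart from the others below). Col5a3 and Col11a1 had GC-rich sequence and the letters of an Sp1 site and a CCAAT box. Col13a1 had 24 CpG dinucleotides and the letters TATAAA, and Col3a1 had the letters TATAAA and 0 CpG. Each run is the 250 bases before the start in RefSeq, build GRCm38.p6, written 5′ to 3′ on the strand of the gene, with matches on either strand to the TATA box letters TATAAA, to the CCAAT box and to the Sp1 letters GGGCGG in capitals.
Col5a3 (chr9:20815068-20815317, minus strand): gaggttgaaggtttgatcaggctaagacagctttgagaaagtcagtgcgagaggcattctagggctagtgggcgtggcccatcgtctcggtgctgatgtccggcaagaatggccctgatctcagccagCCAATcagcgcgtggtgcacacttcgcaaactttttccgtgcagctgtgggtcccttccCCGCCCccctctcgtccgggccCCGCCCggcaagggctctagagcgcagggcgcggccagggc
Col11a1 (chr3:114030290-114030539, plus strand): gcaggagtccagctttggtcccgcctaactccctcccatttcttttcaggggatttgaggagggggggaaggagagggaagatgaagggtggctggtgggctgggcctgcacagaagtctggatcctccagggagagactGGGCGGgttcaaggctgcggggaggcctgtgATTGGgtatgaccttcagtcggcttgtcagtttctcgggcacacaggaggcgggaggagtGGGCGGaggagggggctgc
Col13a1 (chr10:61979109-61979358, minus strand): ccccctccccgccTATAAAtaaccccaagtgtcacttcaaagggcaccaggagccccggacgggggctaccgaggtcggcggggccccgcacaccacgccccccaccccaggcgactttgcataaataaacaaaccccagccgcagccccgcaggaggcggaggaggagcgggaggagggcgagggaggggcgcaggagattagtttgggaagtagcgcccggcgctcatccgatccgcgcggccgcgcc
Col3a1 (chr1:45311288-45311537, plus strand): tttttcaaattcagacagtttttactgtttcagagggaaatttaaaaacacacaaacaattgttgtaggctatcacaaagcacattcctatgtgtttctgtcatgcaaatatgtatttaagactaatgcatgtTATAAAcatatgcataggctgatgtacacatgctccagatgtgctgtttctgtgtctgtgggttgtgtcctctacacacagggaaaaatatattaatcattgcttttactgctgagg
In the set of promoters used here, 33 of the 41 members were matched by symbol (36 promoters). Col1a1, Col2a1, Col5a2, Col12a1, Col14a1, Col22a1, Col4a3 and Col9a3 were not matched. Among the 36, TATAAA was found in 13.9% against 12.4% of all 32851 promoters, CCAAT in 36.1% against 33.8%, and GGGCGG in 58.3% against 32.7%. The median GC content was 59.4% against 52.4%. Several members lie next to each other in the genome: Col3a1 with Col5a2, Col6a1 with Col6a2, Col4a3 with Col4a4, Col4a5 with Col4a6, Col9a1 with Col19a1, and Col4a1 with Col4a2, which start 21 bases apart in opposite directions. Some of the 36 windows hold annotated exon bases, all 250 of them for Col4a1, Col4a2, Col6a4 and Col20a1. Matches were counted anywhere in the 250 bases, at whatever distance from the start. They describe letters in the windows and say nothing on binding or on a working TATA box.

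The libraries held 14891294 to 26430050 expected counts. Kdm3b was at 146 to 261 CPM (expected counts scaled by the library total) in the 6 WT libraries and at 17.7 to 65.5 CPM in the 6 KO libraries, with no overlap, and it was lower in KO at each day in edgeR's quasi-likelihood test (FDR = 0.0132 at day 0, 0.00302 at day 2 and 0.00121 at day 10). One feature of the libraries touches every value below. At days 0 and 2, library B was above library A for most collagen genes: the median log2 ratio of B to A over the 31 tested members was 1.31 and 1.37 in WT and 0.79 and 1.10 in KO, against 0.17 to 0.20 over all 14324 tested genes. At day 10 it was -0.01 in WT and -0.37 in KO. In the 4 early groups the ratio rose with transcript length across genes (Spearman's rho 0.39 to 0.51 over 14324 genes, which share the same libraries), and the median length of the collagen transcripts was 5605 bases against 2767 bases for all tested genes. Comparisons below are therefore also given with 1 letter alone at days 0 and 2, in fits where those groups have 1 library each and the spread comes from the 4 day 10 libraries, and in which more of all genes were called. These counts are over 33 tested members with A and 32 with B, and the part of this difference in any result was not tested beyond those values.

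**Figure D1:**
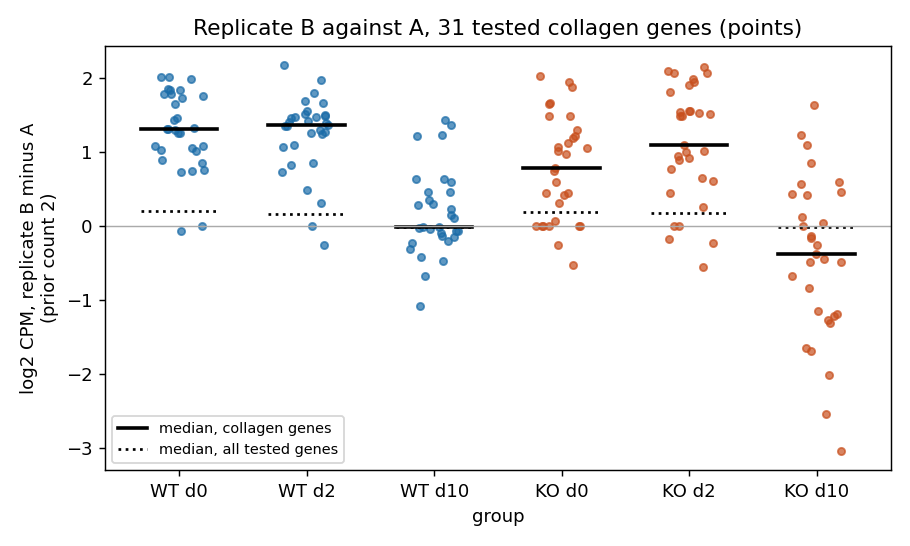
Difference between libraries B and A in log2 CPM (y axis, prior count 2) for each tested collagen gene (points) in each group (x axis), with the median of the collagen genes as a solid line and that of all tested genes as a dotted line. Collagen genes lie mostly above 0 at days 0 and 2 and around or below 0 at day 10.

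The levels of 12 fibroblast markers were summed in each library, since MEFs are a source of collagen RNA. The sum was 72.8 to 107 CPM in WT at day 0, 15.9 to 19.2 at day 2 and 27.7 to 32.5 at day 10, and in KO 43.3 to 68.9, 6.59 to 8.78 and 18.1 to 18.5 CPM. The ESC library had 88.9 CPM. Most of the day 0 sums was S100a4, a gene that other cell types also express, at 61.4 to 98.9 CPM in WT and 36.0 to 64.4 CPM in KO at day 0 and at 2.81 to 7.31 and 6.37 to 6.72 CPM at day 10. Without S100a4, which was split off after its values were seen, the other 11 markers summed to 8.18 to 11.4 CPM in WT at day 0, 7.39 to 11.2 at day 2 and 24.9 to 25.2 at day 10, and in KO to 4.49 to 7.26, 5.01 to 8.25 and 11.4 to 12.1 CPM, with 53.0 CPM in ESC. This sum was higher at day 10 than before in both genotypes, and higher in WT than in KO at day 10. Of the 9 markers tested, 4 (Dcn, Postn, Pdgfrb and Thy1) were higher and S100a4 was lower in WT at day 10 against day 0, and 4 were lower and 0 higher in KO than in WT at day 10. Over all tested genes, 21.0% were called higher and 13.1% lower in the first comparison, and 12.4% higher and 19.9% lower in the second. Lum, a defining fibroblast gene, had 0 counts in all 12 pre-iPSC libraries, and Dcn, the decorin gene, reached 1.43 and 4.59 CPM in WT at day 10. Of 8 tested markers of primitive and parietal endoderm, 4 (Gata4, Gata6, Dab2 and Sox17) were also higher in WT at day 10 and 4 lower in KO, with Sox17 at 0.772 and 0.517 CPM in WT and 0 in both KO libraries at that time. Of 6 epithelial markers 5 were higher in WT at day 10 and 5 lower in KO, and of 6 markers of naive pluripotency 4 were higher and 2 lower in WT and 4 lower in KO. Of 5 tested cartilage markers 2 were higher in WT, with 2 higher and 1 lower in KO, and of 5 endothelial markers 1 was higher and 1 lower in WT and 1 higher in KO. Whether these cell types contribute to the collagen values was not tested. In bulk RNA, fewer cells of a type and less RNA per cell cannot be told apart.

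Collagen RNA was dominated by a few genes. Of the 41 members, 12 reached a mean of 10 CPM in at least 1 pre-iPSC group, 17 peaked between 1 and 10 CPM, and 12 stayed under 1 CPM in every pre-iPSC group. Col19a1, a fibril-associated collagen, had 0 counts in all 13 libraries. The number of members at 1 CPM or more was 16 in WT and 10 in KO at day 0, 26 in WT and 16 in KO at day 10, and 28 in the ESC library. After a filter on low counts 31 members were tested, 10 fibrillar, 4 of type IV and 17 others. In the fit that does not pair A with B, 21 of them passed the test in at least 1 comparison.

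**Figure D2:**
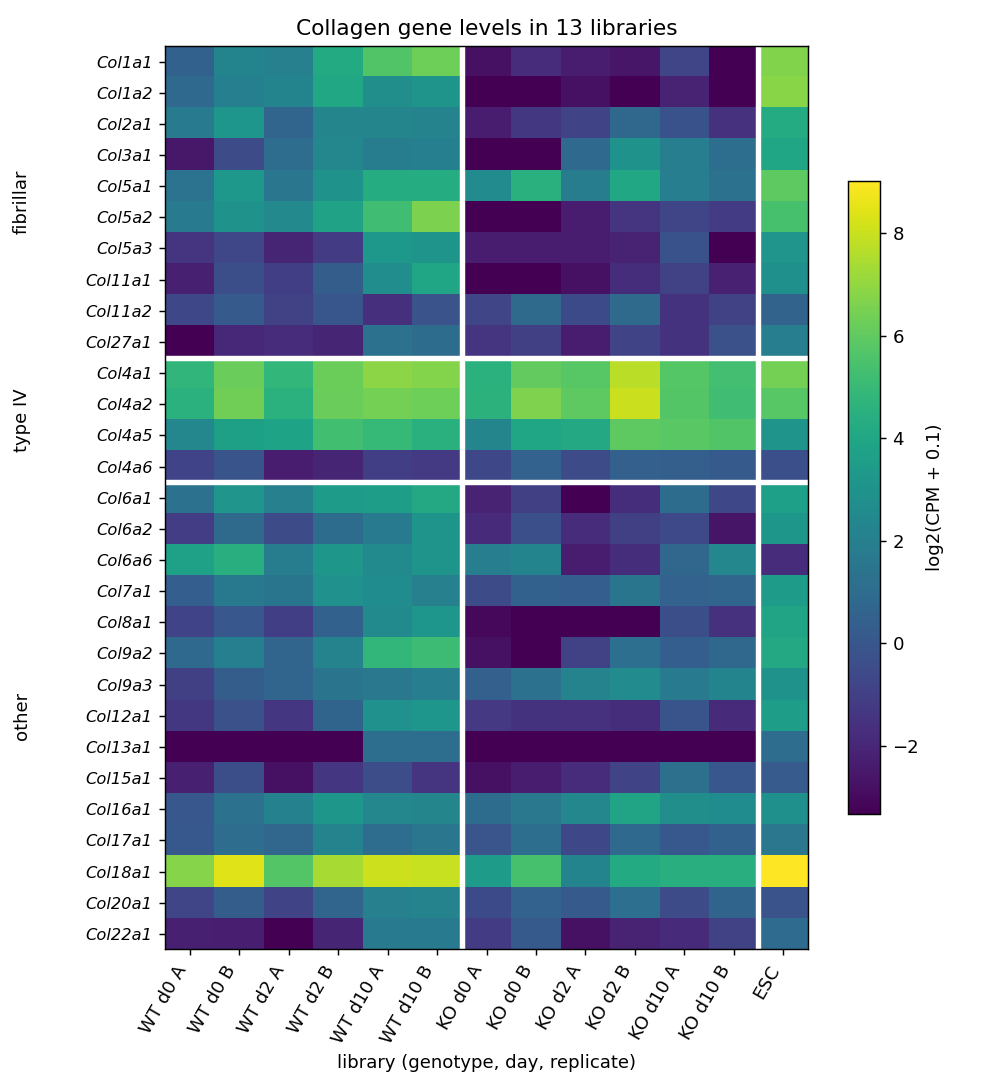
Level of the 29 collagen genes that reached 1 CPM in a pre-iPSC group mean (rows, by class) in the 13 libraries (columns), coloured by log2(CPM + 0.1). Col18a1, Col4a1 and Col4a2 are bright in most columns, and the fibrillar rows Col1a1, Col1a2 and Col5a2 are dark in all 6 KO columns.

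The mixture of chains differed between genotypes when levels were compared per transcript length, as TPM. In WT at day 0, Col18a1, the source of the fragment endostatin, made up 59.0 and 61.8% of all collagen TPM in A and B, type IV genes 23.4 and 23.5%, and fibrillar genes 6.10 and 5.75%. In KO at day 0 the type IV share was 61.3 and 64.6%, and at day 2 it was 79.3 and 84.0%. At day 10 fibrillar genes held 18.0 and 26.7% in WT and 4.86 and 3.08% in KO, and type IV genes 26.2 and 20.7% in WT and 69.2 and 64.7% in KO. Libraries A and B gave nearly the same shares at days 0 and 2 although their summed levels differed, for example 63.3 and 250 TPM for all members in WT at day 0. A share also depends on the level of the other classes. In A and B, type IV genes summed to 14.8 and 58.8 TPM in WT and 13.6 and 63.1 TPM in KO at day 0. At day 2 they summed to 17.4 and 61.8 TPM in WT and 33.8 and 185 TPM in KO. At day 10 their sums were lower in KO, at 46.9 and 36.4 TPM against 67.9 and 59.0 TPM in WT. These shares and sums are descriptions without a test.

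In WT cells, the first comparison asked what AA+2i did within 2 days. None of the 31 tested members was called changed at day 2 against day 0 by edgeR's quasi-likelihood test at a false discovery rate (FDR) under 0.05, where 5.3% of all tested genes were. At an unadjusted p under 0.05 there were 7, and DESeq2 called 2. Shares of all genes are not given here for these counts, which therefore say nothing particular to collagen genes. Col3a1, the chain of type III fibrils, was at 0.0757 and 0.623 CPM at day 0 and 1.98 and 5.07 CPM at day 2 in A and B (log2 fold change 3.38, SE 0.97, FDR = 0.0985 in edgeR). Its libraries did not overlap. With a block for the letter at days 0 and 2, 12 of the 31 members were called, where 30.1% of all tested genes were. Within a letter at both days, the count of called members was 5 with A alone and 6 with B alone, where 11% and 12.8% of all tested genes were called.

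By day 10, WT cells had more RNA of 13 collagen genes, 6 of them fibrillar and 7 of other classes. Of the 31 tested members 13 rose from day 0 and 0 fell (FDR under 0.05, edgeR), 41.9% of them against 34.1% of all tested genes called in either direction and 21.0% called higher. The 13 comprised 6 of 10 fibrillar genes, 0 of 4 type IV genes and 7 of 17 others. The median log2 fold change was 3.48 for the fibrillar genes, 0.86 for type IV and 1.59 for the others, against -0.03 over all tested genes. With A alone at days 0 and 2 the count was 26 and with B alone 22, where 59.7 and 59.3% of all tested genes were called. From day 2 to day 10, a comparison that shares the day 10 libraries, 11 rose and 0 fell (background 29.5% in either direction and 18.3% higher).

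Col1a1, which encodes the more abundant chain of type I collagen, was at 1.32 and 4.67 CPM in A and B at day 0, at 3.97 and 18.3 CPM at day 2, and at 49.5 and 77.4 CPM at day 10. Both day 10 libraries lay above all 4 earlier ones, and the rise from day 0 was a log2 fold change of 4.40 (SE 0.89, FDR = 0.00518 in edgeR). Col5a2, a type V chain, had 3.29 and 8.05 CPM at day 0, 5.57 and 13.4 CPM at day 2, and 37.0 and 95.5 CPM at day 10 (log2 fold change 3.52, SE 0.63, FDR = 0.00377). Col5a3, another type V chain, stayed under 1 CPM until day 2 (0.265 and 0.519 CPM at day 0) and reached 9.53 and 8.15 CPM at day 10. Its rise, with the promoter shown above, was 4.46 (SE 0.79, FDR = 0.00258 in edgeR). Col11a1, a type XI chain found in cartilage fibrils, went from 0.114 and 0.675 CPM to 6.39 and 15.2 CPM at day 10. In both genes the day 0 and day 10 libraries did not overlap, with FDR = 0.00398 for Col11a1 in edgeR.

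Not every fibrillar gene moved this way. Col1a2, which encodes the partner chain of Col1a1, was at 1.78 and 3.89 CPM at day 0, 4.55 and 16.2 CPM at day 2, and 6.67 and 8.21 CPM at day 10, where it was not called (log2 fold change 1.36, SE 0.64, FDR = 0.146 in edgeR). The ratio of Col1a1 to Col1a2 in TPM was therefore 0.817 to 1.31 in the 4 WT libraries of days 0 and 2, and 8.14 and 10.3 at day 10, against 0.992 in the ESC library. Col3a1 rose between day 0 and day 10, to 3.47 and 3.88 CPM (log2 fold change 3.44, FDR = 0.0274 in edgeR), near its level at day 2. Col5a1, the third type V gene, had 2.50 and 9.29 CPM at day 0 and 19.7 and 19.4 CPM at day 10 and was not called (log2 fold change 1.72, FDR = 0.163). Col27a1 went from 3 counts in the pair of day 0 libraries to 74 at day 10, a ratio of 33.5 (95% counting interval 11.04 to 166). The call for Col3a1 was lost without WT day 0 A, day 10 A or day 10 B (FDR up to 0.14 in edgeR), and the rise of Col1a1 from day 2 (log2 fold change 2.52) was lost with library totals alone and without any of 6 libraries (FDR up to 0.197), among them WT day 2 A and both WT day 10 libraries.

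**Figure D3:**
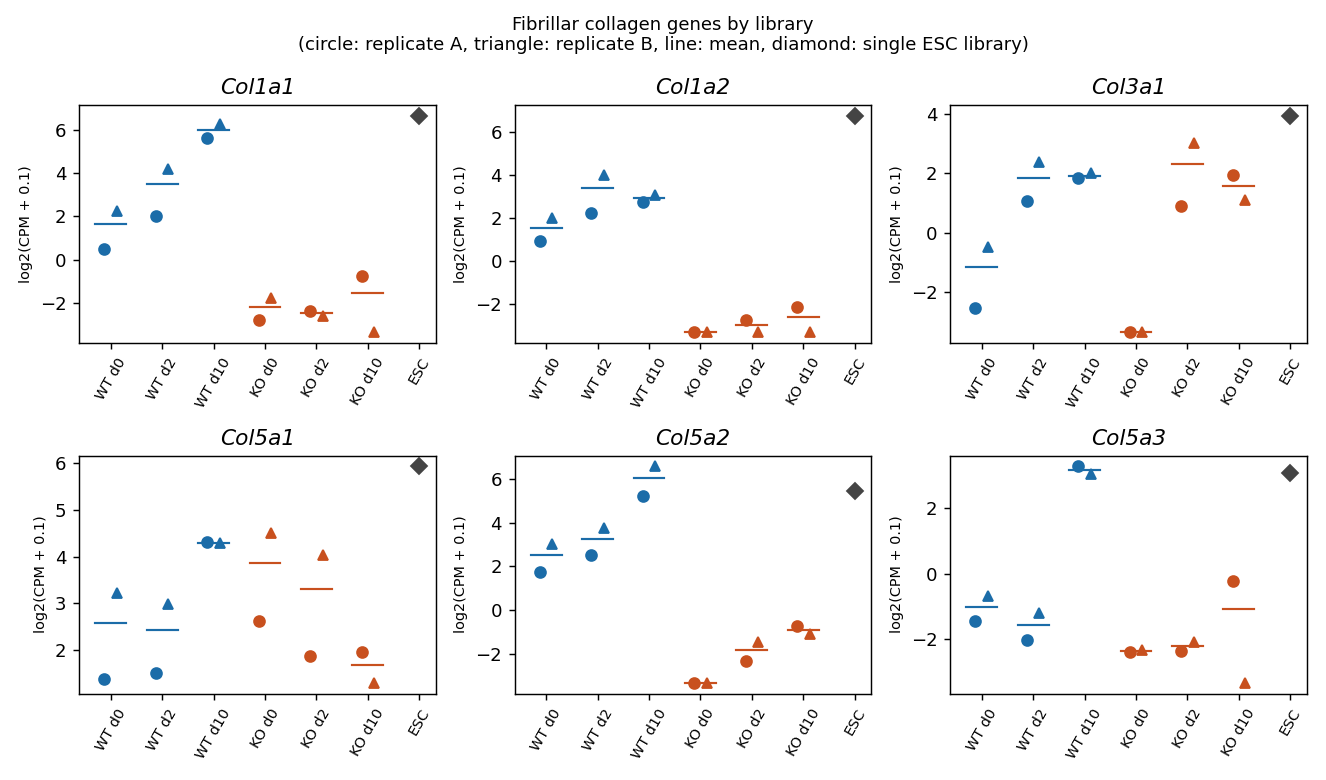
Levels of 6 fibrillar collagen genes as log2(CPM + 0.1) in each library (y axis) by group (x axis), with circles for A, triangles for B, lines for the mean CPM and a diamond for the ESC library. Col1a1, Col1a2 and Col5a2 lie lower in all 6 KO libraries than in any WT library, while Col3a1 and Col5a1 overlap between genotypes.

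Among the other classes, the genes that rose in WT by day 10 were Col8a1, Col9a2, Col9a3, Col12a1, Col13a1, Col20a1 and Col22a1. Col9a2, a chain of the fibril-associated type IX, was the most abundant, at 1.78 and 3.89 CPM at day 0, 1.55 and 4.49 CPM at day 2, and 28.6 and 35.0 CPM at day 10 (log2 fold change 3.46, SE 0.67, FDR = 0.00417 in edgeR). Col12a1, which binds to the surface of type I fibrils, went from 0.303 and 0.727 CPM to 7.55 and 8.93 CPM (log2 fold change 3.98, FDR = 0.00285). Both genes had day 10 libraries above all earlier WT libraries. Col22a1, a fibril-associated collagen of tissue junctions, had 0.114 and 0.104 CPM at day 0, 0 and 0.145 CPM at day 2, and 3.25 and 3.17 CPM at day 10 (log2 fold change 4.73, FDR = 0.00137). Col8a1, which forms hexagonal networks, went from 0.454 and 0.923 CPM to 5.62 and 8.80 CPM (log2 fold change 3.35, FDR = 0.00785 in edgeR). Its call was lost without WT day 0 A (FDR = 0.0618).

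Col13a1, a transmembrane collagen, had 0 counts in all WT libraries of days 0 and 2 and in all 6 KO libraries, and 70 counts in the pair of WT day 10 libraries (2.09 and 2.07 CPM). Against a floor of 3 counts over the day 0 pair, it was at least 31.7-fold higher. The call was lost with DESeq2 and without WT day 10 A in edgeR (FDR up to 0.243). Of the 13 genes that rose, Col20a1 and Col9a3 had the smallest fitted changes, with log2 fold changes of 2.35 and 2.09. Both were named after their values were seen.

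Of the type IV genes, Col4a1, Col4a2 and Col4a5 were among the most abundant members. In the fit without a block for the letter, none of the 4 tested passed the test in either time course. Col4a1 was at 27.2 and 73.8 CPM in WT at day 0, 28.2 and 75.0 CPM at day 2, and 114 and 103 CPM at day 10 (log2 fold change 1.08, SE 0.71, FDR = 0.288 for day 10 against day 0 in edgeR). In KO it was at 23.4 and 66.2 CPM at day 0, 55.8 and 210 CPM at day 2, and 53.9 and 39.7 CPM at day 10. At days 0 and 2 library B was above A in both genotypes, and in WT both day 10 libraries lay above all 4 earlier ones. Col4a2 had 23.1 and 80.3, 23.1 and 73.7, and 85.3 and 77.8 CPM in WT at the same days, and 23.8 and 98.1, 61.5 and 259, and 51.5 and 36.8 CPM in KO. The ratio of Col4a1 to Col4a2, whose starts face each other, stayed between 0.656 and 1.30 in TPM over the 12 pre-iPSC libraries, and was 1.52 in the ESC library.

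Col4a5, a chain of the type IV network that pairs with Col4a6 or with Col4a3 and Col4a4, had 5.11 and 12.9 CPM in WT and 4.76 and 15.2 CPM in KO at day 0, and 30.3 and 22.6 CPM in WT and 56.8 and 50.6 CPM in KO at day 10. The day 10 libraries lay above those of day 0 in both genotypes, but neither change passed the test (log2 fold change 1.53, FDR = 0.141 in WT, and 2.39, FDR = 0.0614 in KO, edgeR). Col4a6 was the 1 member called higher in KO than in WT. It had 0.0968 and 0.145 CPM in WT and 0.623 and 1.28 CPM in KO at day 2 (log2 fold change 2.94, SE 0.64, FDR = 0.0200 in edgeR), and 0.386 and 0.323 against 1.25 and 1.03 CPM at day 10 (log2 fold change 1.71, FDR = 0.0446). The libraries did not overlap at either day, but the levels were low. The call at day 2 needed WT day 2 A, WT day 2 B and KO day 2 B (FDR up to 0.14 without 1 of them), and that at day 10 was lost with library totals alone, with no filter, with DESeq2 and without any of 8 libraries, including each of the 6 WT libraries (FDR up to 0.196).

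**Figure D4:**
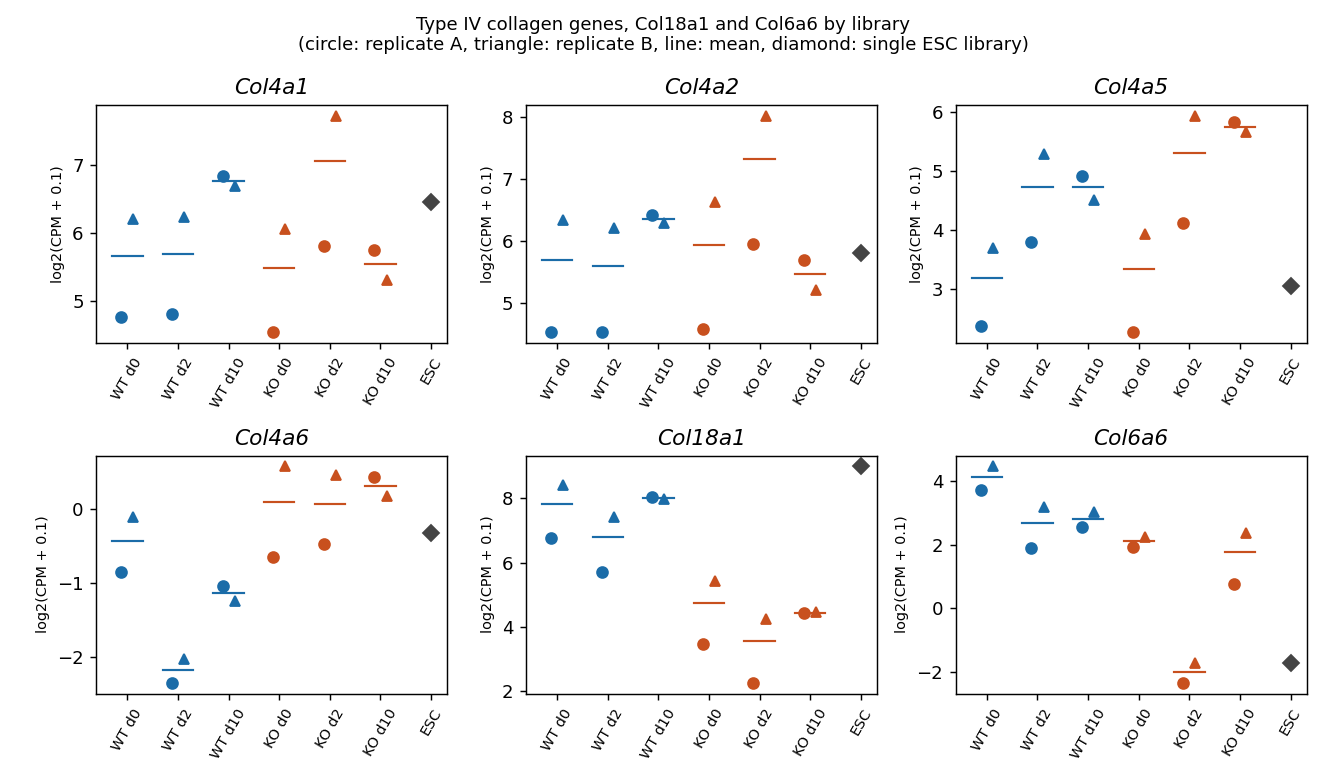
Levels of the 4 tested type IV genes, Col18a1 and Col6a6 as log2(CPM + 0.1) in each library (y axis) by group (x axis), with circles for A, triangles for B, lines for the mean CPM and a diamond for the ESC library. Col4a1 and Col4a2 overlap between genotypes at day 0, Col18a1 is lower in every KO library than in any WT library, and Col6a6 dips in KO at day 2.

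In the fit without a block for the letter, few collagen genes were called in the KO cells over the same course. At day 2 against day 0, 2 members rose and 1 fell (background 6.39% in either direction, 4.02% higher and 2.37% lower). At day 10 against day 0, 3 rose and 0 fell (15.1% in either direction, 9.93% higher). At day 10 against day 2, 1 rose (3.1% in either direction, 2.49% higher). With a block for the letter at days 0 and 2, more members were called against day 0. There were 13 at day 2 and 12 at day 10, where 29.5 and 47.8% of all tested genes were called. The count at day 10 against day 0 was 12 with A alone and 12 with B alone (40.4 and 47.7% of all tested genes), and that at day 2 was 8 and 9 (12.1 and 12.3%). Col3a1 had 0 counts in both KO libraries at day 0, 1.77 and 7.92 CPM at day 2, and 3.75 and 2.06 CPM at day 10, at least 61.3-fold and at least 40.9-fold higher than day 0. The levels at days 2 and 10 overlapped with those of WT at the same days, while both KO libraries of day 0 lay below both of WT. The calls for Col3a1 were each lost without 1 of 3 KO libraries, both day 0 libraries among them (FDR up to 0.0839 at day 2 and 0.0735 at day 10 in edgeR).

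Col9a2 in KO went from 1 count over both libraries at day 0 to 41 at day 2 and 46 at day 10, ratios of 48.7 (95% counting interval 8.26 to 1969) and 60.02 (10.2 to 2422). The day 2 call depended on the setting and was lost with library totals alone, with A alone and without any of 9 libraries (FDR up to 0.238), and the day 10 call was lost without any of the 4 KO libraries of days 0 and 10 (FDR up to 0.119). Col15a1, a multiplexin like Col18a1, went from 3 counts to 51 between day 0 and day 10 (ratio 22.2, interval 7.17 to 111), and its call was lost without KO day 0 A, day 0 B or day 10 A (FDR up to 0.166). Col6a6, a type VI chain, moved down and up again. It had 3.73 and 4.67 CPM at day 0, 0.0959 and 0.201 CPM at day 2, and 1.58 and 5.07 CPM at day 10. The fall to day 2 was a log2 fold change of -4.84 (FDR = 0.00829 in edgeR), lost without either KO day 2 library (FDR up to 0.0743), and the rise after it was 4.45 (FDR = 0.0256), lost without any of 5 libraries (FDR up to 0.125): KO day 2 A or B, KO day 10 B and WT day 10 A or B.

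Genotypes already differed at day 0. Of the 31 tested members, 6 were lower in KO and 0 higher (background 8.29% in either direction and 5.59% lower): the fibrillar Col1a2, Col2a1 and Col5a2, and Col6a1, Col8a1 and Col9a2. Col5a2 had 0 counts in both KO libraries against 242 over both WT libraries, at least 74.9-fold lower. Col1a2 also had 0 counts in KO at day 0 and was at least 37.8-fold lower. Col2a1, the cartilage fibril chain, was at 0.0898 and 0.298 CPM in KO against 3.14 and 8.88 CPM in WT (log2 fold change -4.86, SE 0.91, FDR = 0.0121 in edgeR), without overlap. Col1a1 was at 0.0449 and 0.199 CPM in KO, below both WT libraries, but did not pass the test (log2 fold change -4.49, FDR = 0.0593). The count within a letter was 8 with A alone and 12 with B alone (13.3 and 16.9% of all tested genes). Without 1 library the calls of Col1a2 (FDR up to 0.0554), Col2a1 (0.0907), Col6a1 (0.165), Col8a1 (0.172) and Col9a2 (0.0845) were lost, each of them on leaving out either KO library of day 0, and that of Col5a2 was kept in all 12 such fits.

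For the fibrillar genes at day 0, the fitted differences between KO and WT had a median of -4.67 on the log2 scale, or -2.21 with the genes at 0 counts set to their bound. For type IV genes it was 0.25. Outside the fibrillar class, Col9a2 had 1 count in KO against 122 in WT (ratio 113, 95% counting interval 20.0 to 4511). Col6a1, a chain of beaded type VI filaments, was at 0.135 and 0.397 CPM in KO against 2.42 and 8.46 CPM in WT at day 0, and at 0 and 0.201 CPM against 4.06 and 10.6 CPM at day 2.

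At day 2, 6 members were lower in KO and 1, Col4a6, was higher (background 10.5% in either direction and 6.16% lower). Col1a1 had 3 counts over both KO libraries against 462 in WT (ratio 133, interval 45.2 to 647), and Col1a2 had 1 against 429 (ratio 370, interval 66.1 to 14667). Col5a2 was at 0.0959 and 0.269 CPM against 5.57 and 13.4 CPM (log2 fold change -5.65, SE 0.86, FDR = 0.00554 in edgeR). Col6a6 was at 0.0959 and 0.201 CPM against 3.61 and 8.95 CPM (log2 fold change -5.32, FDR = 0.00367). In all 4 genes the KO libraries lay below both WT libraries. With A alone 10 members were called and with B alone 15 (17.7 and 22.9% of all tested genes). The calls of Col1a1 (without either KO day 2 library, FDR up to 0.0701), Col6a1 (without WT day 2 B or KO day 2 A, FDR up to 0.0656) and Col8a1 (without any of 9 libraries, FDR up to 0.14) were lost.

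At day 10 the difference was broad. Of 31 tested members 15 were lower in KO and 1 was higher (51.6% called, against 32.3% of all tested genes in either direction and 19.9% lower). The 15 comprised 6 of 10 fibrillar genes, 0 of 4 type IV genes and 9 of 17 others. The median log2 fold change was -3.84 for the fibrillar genes, 0.12 for type IV and -1.97 for the others, against -0.02 over all tested genes. The type IV median hides a split. Both KO libraries lay below both WT libraries for Col4a1 and Col4a2, and above both for Col4a5 and Col4a6. Of these genes only Col4a6 passed the test. Of the 31, 24 had both KO libraries below both WT libraries and 4 had both above, where 44.7% and 36.9% of all tested genes did so. With A alone and with B alone at days 0 and 2 the count of called members was 26 in each case, where 61.5 and 61.4% of all tested genes were called.

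Among the fibrillar genes, Col1a1 was at 0.4998 and 0 CPM in KO against 49.5 and 77.4 CPM in WT (log2 fold change -7.92, SE 1.16, FDR = 0.00121 in edgeR). Col5a2 was at 0.4998 and 0.363 CPM against 37.0 and 95.5 CPM (log2 fold change -7.20, SE 0.81, FDR = 0.000560). Both genes were at less than a CPM in every KO library of the course. Col1a2 had 2 counts in KO against 248 in WT, a ratio of 120 (interval 32.9 to 996). Col5a3 was at 0.750 and 0 CPM against 9.53 and 8.15 CPM (FDR = 0.00335 in edgeR), and Col11a1 at 0.437 and 0.121 CPM against 6.39 and 15.2 CPM (FDR = 0.00415). Col3a1 stood apart from these, with 3.75 and 2.06 CPM in KO overlapping 3.47 and 3.88 CPM in WT (log2 fold change -0.29, SE 0.80, FDR = 0.834). Col3a1 and Col5a2 are neighbours in the genome. Col2a1 was lower in KO (log2 fold change -3.17, FDR = 0.0182), a call lost without any of the 4 day 10 libraries (FDR up to 0.144).

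Outside the fibrillar class, Col18a1 had the highest level. It was at 109 and 342 CPM in WT and 10.9 and 42.6 CPM in KO at day 0, 52.1 and 170 against 4.65 and 18.7 CPM at day 2, and 264 and 253 against 21.2 and 21.9 CPM at day 10. All 6 KO libraries lay below all 6 WT libraries. It passed the test at day 10 (log2 fold change -3.54, SE 0.88, FDR = 0.0140 in edgeR) and not at day 0 (-3.03, FDR = 0.0680) or day 2 (-3.19, FDR = 0.0510). Col9a2 was at 1.19 and 1.64 CPM in KO against 28.6 and 35.0 CPM in WT at day 10 (log2 fold change -4.44, FDR = 0.00201). Col12a1 was at 0.812 and 0.182 CPM against 7.55 and 8.93 CPM (FDR = 0.00366). Col13a1, at 0 counts in KO, was at least 22.6-fold lower, a call that DESeq2 and the fits without WT day 10 A or B did not make (FDR up to 0.287). Col6a1 and Col6a2, neighbouring genes whose chains share the type VI filament, were both lower, by log2 fold changes of -3.49 (FDR = 0.0125) and -4.14 (FDR = 0.0155). The call of Col6a1 was lost without WT day 10 B or KO day 10 B (FDR up to 0.107), that of Col22a1 without KO day 10 A (0.0615) and that of Col8a1 without KO day 10 B (0.0572). Col18a1, Col6a2 and Col20a1 were named after their values were seen.

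**Figure D5:**
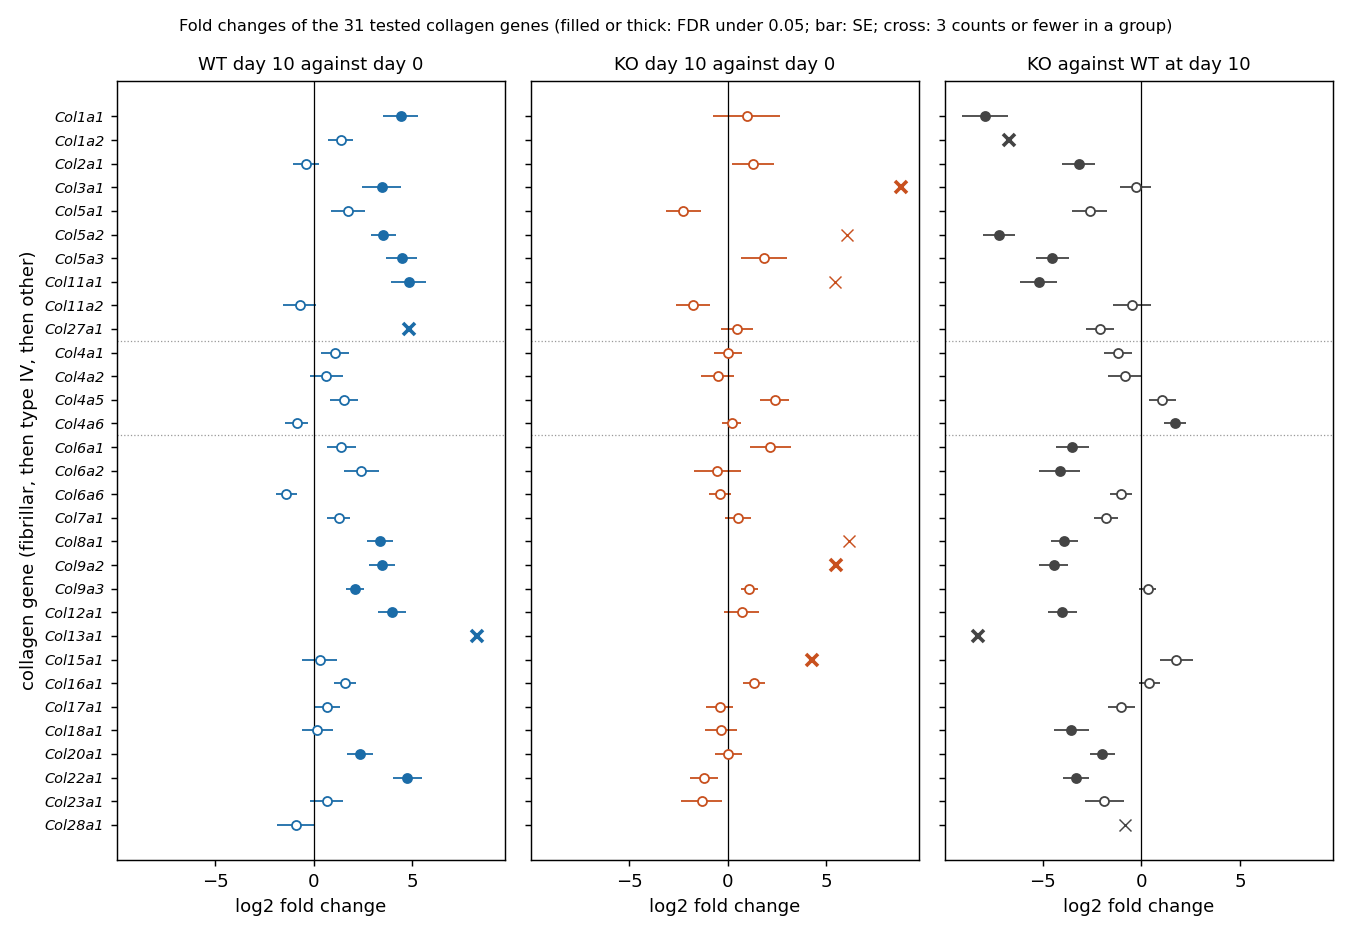
Log2 fold change (x axis) of the tested collagen genes (rows, by class) in 3 comparisons, with filled circles or thick crosses for FDR under 0.05, bars for the SE and crosses for genes with 3 counts or fewer in a group, whose position is the fitted value and not a bound. Genes at or under 3 counts in both groups are left out. In WT the fibrillar genes lie mostly to the right of 0 at day 10, and in KO against WT mostly to the left.

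Of the 13 members that rose in WT by day 10, 10 were also lower in KO than in WT at day 10: Col1a1, Col5a2, Col5a3, Col8a1, Col9a2, Col11a1, Col12a1, Col13a1, Col20a1 and Col22a1. The comparisons share the WT day 10 libraries, so this overlap is not independent. Col27a1, Col3a1 and Col9a3 rose in WT without being called between genotypes, and Col1a2, Col2a1, Col6a1, Col6a2 and Col18a1 were lower in KO without a called rise in WT. The difference between genotypes in the change from day 0 to day 10 was tested as an interaction. It was called for 1 of 31 members, Col22a1, where 12.6% of all tested genes were called in either direction and 6.2% as lower. Col22a1 had 0.359 and 1.04 CPM in KO at day 0 and 0.187 and 0.424 CPM at day 10 while it rose in WT, with an interaction of -5.93 on the log2 scale (SE 1.04, FDR = 0.00716 in edgeR). For Col1a1 it was -3.43 (SE 2.13, FDR = 0.375) and for Col5a1 -3.97 (SE 1.24, FDR = 0.0720). At day 2 the interaction was called for 0 members (background 0.195%), with 5 at an unadjusted p under 0.05 and 0 by DESeq2. Shares of all genes at the unadjusted threshold and in DESeq2 are not given here. The counts of members called for an interaction moved with the handling of the letters. With A alone, with B alone and with a block for the letter at days 0 and 2, the day 10 interaction was called for 7, 9 and 13 members, where 30.6, 31.1 and 44.6% of all tested genes were called. The day 2 interaction was called for 0, 3 and 7 members, against 0.836, 0.877 and 7.74% of all genes.

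A group of 10 tested members passed the test in no comparison when the fit had no block for the letter. The group depends on that fit. With a block at days 0 and 2, 26 of 31 members were called between genotypes at day 10, where 63.8% of all tested genes were. The 10 members were Col4a1, Col4a2, Col4a5, Col5a1, Col7a1, Col11a2, Col16a1, Col17a1, Col23a1 and Col28a1. Col5a1 was the most abundant fibrillar gene among them and, unlike Col5a2, was present in KO at day 0, at 6.06 and 22.7 CPM against 2.50 and 9.29 CPM in WT, which overlapped. At day 10 it was at 3.81 and 2.36 CPM in KO, below the 19.7 and 19.4 CPM of WT (log2 fold change -2.62, SE 0.90, FDR = 0.0541 in edgeR). Col16a1, a fibril-associated collagen named after its values were seen, ran at 0.908 to 14.6 CPM over the 12 libraries, with genotypes overlapping at days 0 and 2 and both KO libraries slightly above WT at day 10 (log2 fold change 0.41, FDR = 0.626 in edgeR). The 10 untested members were Col4a3, Col4a4, Col6a4, Col8a2, Col9a1, Col10a1, Col14a1, Col19a1, Col24a1 and Col25a1. Each stayed under 1 CPM in every pre-iPSC group mean, where 3 counts correspond to 0.114 to 0.201 CPM in these libraries.

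The ESC library gave a single reference value per gene and entered no test. Of 30 members with at least 1 CPM in it or in a WT day 10 library, ESC lay above both WT day 10 libraries for 18, below both for 8 and between them for 4, and for 21 it lay within 3-fold of the WT day 10 mean. It lay above both KO day 10 libraries for 26 of the 30. Over all 13807 genes at that level, ESC lay above both WT day 10 libraries for 39.2%, below both for 53.6%, between them for 7.15%, within 3-fold of their mean for 83.1%, and above both KO day 10 libraries for 46.5%. Col1a1 was at 100.4 CPM, Col18a1 at 513 CPM and Col5a2 at 43.3 CPM, values nearer to WT than to KO at day 10. Col1a2 differed from both, with 111 CPM in ESC against 6.67 and 8.21 CPM in WT at day 10. Col10a1, the collagen of hypertrophic cartilage, was at 12.1 CPM in ESC and at most 0.290 CPM in the pre-iPSC libraries. In the other direction, Col4a5 was at 8.25 CPM and Col6a6 at 0.199 CPM in ESC, below both WT day 10 libraries. The fibroblast marker sum of that library, given above, was also higher than in any day 10 library, with or without S100a4, and its part in these values was not tested.

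Genes that act on collagens were read from lists by role, and their counts stand against the shares of all tested genes given for the markers (21.0% higher and 13.1% lower in WT, 12.4% higher and 19.9% lower in KO). Of 16 tested enzymes and chaperones that modify the chains in the endoplasmic reticulum, 0 rose and 3 fell in WT at day 10 against day 0. They were Fkbp10, a collagen chaperone, at 117 and 230 CPM at day 0 and 29.0 and 21.9 CPM at day 10 (log2 fold change -2.81, FDR = 0.00836 in edgeR), and 2 relatives of the prolyl 3-hydroxylases under their older symbols, Leprel2 (-2.66, FDR = 0.0123) and Leprel4 (-2.06, FDR = 0.00011). The same list had 3 genes higher and 0 lower in KO at day 10: Glt25d2, a collagen galactosyltransferase, Leprel4 and Serpinh1. Serpinh1, the chaperone HSP47, was at 488 and 504 CPM in KO against 260 and 250 CPM in WT (log2 fold change 1.01, FDR = 0.0290 in edgeR). P4ha1 and P4ha2, which encode catalytic subunits of the prolyl 4-hydroxylase that uses ascorbic acid, and P4hb, which encodes their partner subunit, were not called in either comparison.

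Of 13 genes for processing and cross-linking, 3 rose and 2 fell in WT at day 10. At that day 4 were higher and 3 were lower in KO than in WT. Lox, which encodes lysyl oxidase that cross-links fibrils, went from 0.795 and 0.831 CPM to 5.46 and 9.64 CPM (log2 fold change 3.14, SE 0.45, FDR = 0.00129 in edgeR). In KO it was at 0.437 and 0.242 CPM at day 10, below WT (log2 fold change -4.40, FDR = 0.000647). Adamts14, a proteinase that trims procollagen, rose from 1.29 and 4.21 CPM to 17.8 and 22.1 CPM (log2 fold change 2.85, FDR = 0.0174) and was also lower in KO at day 10, as was Loxl1. Pxdn, the peroxidasin that cross-links type IV collagen, fell in WT, from 112 and 293 CPM to 33.3 and 24.3 CPM (log2 fold change -2.84, FDR = 0.0215 in edgeR). It was higher in KO at day 10, at 154 and 169 CPM (log2 fold change 2.53, FDR = 0.0351).

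Of 12 tested basement membrane partners 3 rose and 1 fell in WT at day 10, and 1 was higher and 4 were lower in KO. Nid1, which encodes nidogen that links laminin to type IV collagen, went from 9.23 and 23.0 CPM to 460 and 384 CPM in WT (log2 fold change 4.68, SE 0.85, FDR = 0.00288 in edgeR) and was at 18.2 and 9.02 CPM in KO at day 10 (-4.90, FDR = 0.00281). Of 10 tested fibrillar matrix partners 3 (Dcn, Fmod and Postn) rose in WT, all from under 1 CPM, and 4 were lower in KO. Among 7 receptors Itga11, an integrin subunit that binds fibrillar collagen, rose in WT to 1.82 and 3.95 CPM, and Ddr2, a receptor kinase for fibrillar collagen, fell from 88.2 and 205 CPM to 28.5 and 30.3 CPM (log2 fold change -2.35, FDR = 0.0213). Of the 7 receptors, 0 were higher and 2 were lower in KO at day 10. Of 6 tested degrading enzymes and their inhibitors 2 rose and 2 fell in WT, and 1 was higher and 3 were lower in KO. Mmp2, a gelatinase, went from 0.946 and 1.92 CPM to 12.02 and 9.25 CPM (log2 fold change 2.86, FDR = 0.00168) and stood at 0.312 and 0.303 CPM in KO at day 10.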

How the data were processed

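Total RNA from 13 libraries was sequenced from single-end TruSeq libraries, per the labels' protocols. Reads were aligned with Bowtie2 and quantified with RSEM on mm9, per the submitters' processing notes, with versions not given in the sources used here. The authors deposited expected counts, in which RSEM shares ambiguous reads between genes, so that related genes can exchange reads, and TPM values, which are scaled to transcript length. The strand setting is not given in the sources used here.

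Levels are expected counts scaled by the library total (14891294 to 26430050), as CPM. TPM was used only to compare genes. Expected counts were rounded and tested in edgeR 4.0.16 by quasi-likelihood, under R 4.3.3 (filterByExpr, TMM factors, 1 fit over 12 pre-iPSC libraries in 6 groups, 14324 genes, 6 residual degrees of freedom), with Benjamini-Hochberg FDR under 0.05 over all tested genes in each of 11 comparisons. Where a group had 0 counts, the fold is a bound, computed with 3 counts as the floor of that group. With 1 to 3 counts it is a ratio with a 95% interval, which covers counting error only. Differences are given without a fold threshold.

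The letters A and B pair libraries at days 0 and 2, where the differences between B and A correlated between groups at 0.738 to 0.812 across genes, but not with day 10 (-0.0628 to 0.0551).

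The genes named were Kdm3b, Col1a1, Col1a2, Col3a1, Col4a1 and Col4a2, up to 4 called members per class and comparison with the lowest FDR and at least 1 CPM, uncalled members with at least 10 CPM, and up to 3 called genes of each pathway list. Other members are named where the text says so or in lists that account for them. The members, classes and lists were chosen with earlier results of these data known. Mia3 of the modifying list was not found under that name. Simulated data for WT day 10 against day 0 (13414 genes fitted) gave calls for 29.9% of genes changed 2-fold, 94% of those changed 4-fold and 100% of those changed 8-fold. The simulation gave every gene the same spread, changed only genes with higher counts and held no difference between letters A and B. Its shares are therefore no measure of what could be detected among the collagen genes. Alternatives were other normalizations, no filter, DESeq2 1.42.0, a replicate block and leaving out each library, and, chosen after seeing the data, a block at days 0 and 2 only, a length correction and 1 letter at days 0 and 2.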

Additional observations from a re-analysis of the deposited data

Results flagged for a closer look

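One result differed between genotypes by a test of the difference itself. The change of Col22a1 from day 0 to day 10 was a log2 fold change of 4.73 in WT and the interaction with genotype was -5.93 (SE 1.04, FDR = 0.00716, edgeR's quasi-likelihood test). The 4 WT libraries of these days were at 0.114, 0.104, 3.25 and 3.17 CPM and the KO libraries at 0.359, 1.04, 0.187 and 0.424 CPM. The call was kept in all 21 alternative fits, with values from -6.60 to -4.94 and FDR up to 0.0383.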

How the results depend on the processing

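No named fold change turned its direction in any alternative. Of 55 named calls, 55 were kept with RLE factors, with the length correction, with B alone and in both block fits, 54 with no filter, and 51 each with DESeq2, with library totals alone and with A alone. Leaving out 1 library kept 554 of 660. The comparisons are given in the order WT day 2 against day 0, WT day 10 against day 0, WT day 10 against day 2, KO day 2 against day 0, KO day 10 against day 0, KO day 10 against day 2, KO against WT at days 0, 2 and 10, and the interactions at day 2 and day 10. The counts of called members were 0, 13, 11, 3, 3, 1, 6, 7, 16, 0 and 1. When the replicate block covered days 0 and 2 only, where the letters pair the libraries, they were 12, 25, 20, 13, 12, 11, 15, 20, 26, 7 and 13. More of all tested genes were called in that fit too: 30.1, 65.7, 62.7, 29.5, 47.8, 37.2, 30.4, 36.7, 63.8, 7.74 and 44.6%. With the replicate block over all days the counts of called members were 5, 20, 14, 5, 9, 2, 11, 10, 22, 0 and 4. Counts with A alone and with B alone, where the groups of days 0 and 2 have 1 library each, stand above beside the shares of all tested genes. DESeq2 gave 2, 14, 10, 5, 8, 3, 11, 9, 17, 0 and 4, and the length correction 3, 18, 12, 4, 6, 1, 9, 9, 19, 0 and 3. The cause of these moves was not tested. Shares of all genes are not given here for DESeq2, the length correction and the block over all days. Those counts therefore say nothing particular to collagen genes. Leaving out 1 library, with a lone sample assumed to vary like the other groups, gave ranges of 0 to 1, 9 to 15, 5 to 11, 0 to 3, 0 to 4, 0 to 1, 1 to 7, 4 to 8, 9 to 18, 0 to 0 and 1 to 3. In the simulation 29.9% of genes changed 2-fold were called, with 2 libraries in a group. It held no difference between the letters, so its shares cannot be taken over to the collagen genes. Larger fitted changes of members also went uncalled. Examples in WT were Col16a1 at day 2 against day 0 (log2 fold change 1.99, FDR = 0.0861 in edgeR) and Col6a2 at day 10 against day 0 (2.40, FDR = 0.0668).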
